A study of Mus musculus with 4 samples.

Results

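The genes described here are 10 components of transforming growth factor beta (TGF-beta) signalling: the ligand gene Tgfb1, the receptor genes Tgfbr1, Tgfbr2 and Tgfbr3, the signal transducer genes Smad2, Smad3 and Smad4, the inhibitory Smad7, and the corepressor genes Ski and Skil. They were picked by name and matched through their Ensembl identifiers to mouse symbols. All 10 were found among 50686 identifiers and all 10 were among the 15394 genes with enough reads to be tested. Counts came from 4 mouse libraries, 1 for each pairing of genotype (WT or Yap KO) with state (unstimulated or stimulated), from cells that originated in spleen and lymph node and went through culture before RNA was taken. The stimulus, the cell type, the deleted Yap exons, any Cre driver, the strain and the age are not known from the labels used here, and the stimulated titles carry a 24 without a unit. Each title has the replicate number 1, so no group has a replicate and a difference between genotypes is also one between cell sources.

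TGF-beta is a secreted cytokine that is held latent until it is released from its propeptide. It binds the type II receptor TGFBR2, which phosphorylates the type I receptor TGFBR1, and this kinase in turn phosphorylates SMAD2 and SMAD3, which enter the nucleus with SMAD4. SMAD7 is made in response to the signal and blocks the receptor, while SKI and SKIL (SnoN) bind the SMAD complex and recruit corepressors. In T cells the pathway is known for restraining activation, for holding naive cells in a resting state and for inducing the integrin subunit CD103, encoded by Itgae.

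The libraries held 19935523 to 25419974 reads in genes. Cd8a stood at 822 CPM (reads scaled by library size with the TMM method) in WT and 784 in Yap KO cells before stimulation, and Cd4 had at most 3 reads in any library. Yap1 had 1 and 0 reads in unstimulated and 3 and 2 in stimulated WT and Yap KO libraries, too few to check the genotype label. The counts were made on build mm9, per the submitters' processing notes, and positions are given on GRCm38 from GENCODE M21. Tgfb1 is at chr7:25687002-25705077, Tgfbr1 at chr4:47353222-47414931, Tgfbr2 at chr9:116084293-116175360, Tgfbr3 at chr5:107106570-107289629, Smad3 at chr9:63646767-63757994, Ski at chr4:155154075-155222592 and Skil at chr3:31095058-31122577. All 10 are annotated as protein-coding, and a gene's count sums its exons. In no member did exons lie opposite those of another annotated gene, and at most 4.13% of a member's 31-mers (Tgfbr3) also occurred in another gene's transcripts.

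Promoter sequence is shown for 4 members chosen with their counts known: Tgfbr2 and Tgfbr1, the pair that forms the signalling receptor, Smad3, the member with the largest genotype difference, and Tgfb1, which was not called in either comparison. Each is the 250 bases before a RefSeq transcription start (GRCm38.p6), 5′ to 3′ on the gene's strand. Tgfbr1 has 2 such starts in the table used, and the window of the first is printed. Capitals mark matches on either strand to CAGAC (the SMAD box), CCAAT and GGGCGG (a GC box of the SP1 type). The windows are chr9:116175364-116175613 on the minus strand for Tgfbr2, chr4:47352972-47353221 on the plus strand for Tgfbr1, chr9:63757995-63758244 on the minus strand for Smad3, and chr7:25686752-25687001 on the plus strand for Tgfb1.
Tgfbr2: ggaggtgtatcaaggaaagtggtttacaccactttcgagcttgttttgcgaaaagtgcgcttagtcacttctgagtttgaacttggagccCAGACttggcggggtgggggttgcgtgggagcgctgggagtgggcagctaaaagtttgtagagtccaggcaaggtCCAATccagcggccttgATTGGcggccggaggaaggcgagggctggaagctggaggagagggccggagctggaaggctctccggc
Tgfbr1: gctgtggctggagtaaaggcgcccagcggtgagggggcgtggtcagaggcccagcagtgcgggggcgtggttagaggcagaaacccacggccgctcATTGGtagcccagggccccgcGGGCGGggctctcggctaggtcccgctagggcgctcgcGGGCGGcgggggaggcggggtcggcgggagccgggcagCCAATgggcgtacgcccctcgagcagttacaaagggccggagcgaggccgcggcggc
Smad3: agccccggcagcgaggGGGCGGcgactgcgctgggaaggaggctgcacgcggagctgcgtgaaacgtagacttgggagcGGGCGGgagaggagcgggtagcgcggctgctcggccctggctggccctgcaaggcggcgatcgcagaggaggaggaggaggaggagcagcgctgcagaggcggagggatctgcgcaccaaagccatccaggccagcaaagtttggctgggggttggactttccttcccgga
Tgfb1: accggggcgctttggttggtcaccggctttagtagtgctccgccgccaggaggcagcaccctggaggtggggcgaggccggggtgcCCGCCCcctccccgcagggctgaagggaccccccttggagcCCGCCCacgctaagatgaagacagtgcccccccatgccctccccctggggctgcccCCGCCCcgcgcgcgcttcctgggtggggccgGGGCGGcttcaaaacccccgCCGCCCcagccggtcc

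Both receptor windows printed held 2 CCAAT matches, at 85 and 68 bases before the start in Tgfbr2 and at 154 and 57 bases in Tgfbr1. CCAAT occurred in 33.8% of all 32851 RefSeq windows of this length. The Tgfbr2 window held 1 CAGAC, at 160 bases before the start, and the other windows shown held none, against 42.2% of all windows with at least 1. The window of the second Tgfbr1 start, chr4:47385966-47386215, held 1 CAGAC, at 203 bases, no CCAAT and no GGGCGG, and its GC content was 52.8%. GGGCGG was matched 5 times in Tgfb1, 2 times each in Tgfbr1 and Smad3 and 0 times in Tgfbr2 in the windows printed, and 32.7% of all windows held it. GGAATG, the core bound by TEAD, the DNA-binding partner of YAP, was in none of these 4 windows and in 12.6% of all windows. A match is only a string of letters, and its absence says nothing about binding. Over the printed windows the GC content ran from 58.4% in Tgfbr2 through 69.2% in Smad3 and 74.8% in Tgfbr1 to 75.2% in Tgfb1.

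The first comparison, stimulated against unstimulated cells, showed lower levels of the receptors, of Smad3, Smad4 and Smad7, and of Ski, in both genotypes. Smad7 changed most, by 12.6-fold in the fit, followed by Tgfbr2 at 8.85-fold, while Tgfb1, Smad2 and Skil were not called. In edgeR's quasi-likelihood test, fitted with 1 additive term for state and 1 for genotype, 7 of the 10 members fell (Benjamini-Hochberg adjusted p under 0.05) and 0 rose, and at an unadjusted p under 0.05 the same 7 were counted (70% of all tested genes). DESeq2 also gave 7 and 0. Of all tested genes, 34.1% fell and 33.3% rose. The members' median fitted log2 change was -1.52, against -0.05 over all tested genes. No group has a replicate, so the error behind these p-values is the disagreement between the genotypes, not that between cultures. That error is mostly shared over all genes, with 1 residual degree of freedom per gene beside 7.98 prior ones. Markers of T cells moved in the same direction: 8 of 10 fell and their summed level went from 6706 to 3315 CPM in WT and from 6835 to 2995 CPM in Yap KO. Among markers of regulatory T cells 6 of 8 rose, including Il2ra and Ctla4, which activated T cells also express. Foxp3, which defines regulatory T cells and whose exons lie opposite another gene, had 12.7 and 8.01 CPM before stimulation in WT and Yap KO. After stimulation Foxp3 had 11.5 and 8.66 CPM. Among monocyte and macrophage markers 3 of 5 tested fell, and the summed level (846 and 1477 CPM before, 74.3 and 74.5 CPM after) was mostly Ly6c2, which T cells also express, with 815 and 1416 CPM before and 54.5 and 48.1 CPM after. Lyz2 also fell, from 136 and 238 reads to 6 and 1, and Ccr2 fell from 133 and 763 reads to 34 and 42. Cd68 and Csf1r were not called. Csf1r, the receptor that defines macrophages, had 15.8 and 16.8 CPM before and 14.3 and 20.5 CPM after, and its exons lie opposite another gene. In bulk RNA, fewer cells of a type and less RNA per cell cannot be told apart, and the part of cell composition in these changes was not tested.

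**Figure D1:**
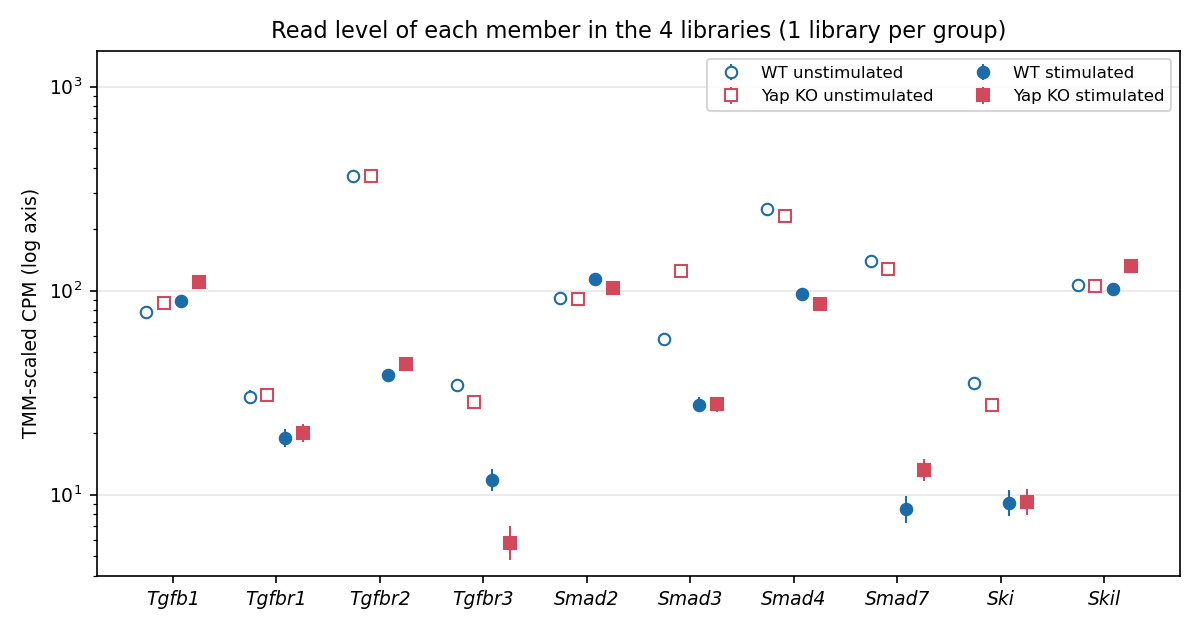
TMM-scaled CPM of each member (log axis) in the 4 libraries, open for unstimulated and filled for stimulated, blue circles for WT and red squares for Yap KO, with exact Poisson 95% intervals where larger than the symbol. For Tgfbr2, both unstimulated libraries lie at 365 and 363 CPM and both stimulated libraries at 38.6 and 43.9 CPM, whereas the 4 values of Tgfb1 lie between 78.2 and 111 CPM.

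Tgfb1, the ligand, had 1790 reads (78.2 CPM) in WT unstimulated, 2267 (87.3 CPM) in Yap KO unstimulated, 1815 (88.9 CPM) in WT stimulated and 2136 (111 CPM) in Yap KO stimulated cells. The ranges of the 2 states did not overlap, with WT stimulated cells just above Yap KO unstimulated cells. Its fitted log2 change with stimulation was 0.26 ± 0.13 (SE) and was not called (edgeR quasi-likelihood adjusted p = 0.0887).

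Tgfbr2, the ligand-binding kinase that starts the signal, had 8362 reads (365 CPM) in WT unstimulated and 9422 (363 CPM) in Yap KO unstimulated cells, and 788 (38.6 CPM) and 846 (43.9 CPM) in stimulated WT and Yap KO cells. Both stimulated libraries were far below both unstimulated ones. The log2 ratio was -3.24 (exact conditional binomial 95% interval -3.35 to -3.14, counting error only, as for every interval of a ratio given here) in WT and -3.05 (-3.15 to -2.95) in Yap KO, and the fitted change was -3.15 ± 0.13 (edgeR quasi-likelihood adjusted p = 1.32e-07). Tgfbr1, the type I kinase that Tgfbr2 activates, had 692 reads (30.2 CPM) and 797 (30.7 CPM) before stimulation and 388 reads in each stimulated library (19.0 and 20.1 CPM). Its fall was smaller in size, as it fell by 0.64 ± 0.16 on the log2 scale (edgeR quasi-likelihood adjusted p = 0.00608), with log2 ratios of -0.67 (-0.85 to -0.49) in WT and -0.61 (-0.79 to -0.43) in Yap KO. The 2 intervals of Tgfbr2 lay well below those of Tgfbr1 in each genotype, and the difference between the genes was not tested.

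Tgfbr3, betaglycan, a coreceptor that presents ligand to TGFBR2, had 784 reads (34.2 CPM) in WT unstimulated, 735 (28.3 CPM) in Yap KO unstimulated, 241 (11.8 CPM) in WT stimulated and 112 (5.81 CPM) in Yap KO stimulated cells. Both stimulated values were below both unstimulated values, and the lowest of all 4 was the stimulated Yap KO library. The log2 ratio was -1.53 (-1.75 to -1.33) in WT and -2.27 (-2.59 to -1.997) in Yap KO. The fitted change was -1.88 ± 0.22 (edgeR quasi-likelihood adjusted p = 5.9e-05).

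Among the receptor-activated SMADs the paralogs Smad2 and Smad3 differed, the first not called and the second lower. Smad2 lies on the same chromosome as Smad4 and Smad7 (chr18:76241580-76310963, chr18:73639009-73703780 and chr18:75367529-75395935). Smad2 had 2112 reads (92.3 CPM) in WT unstimulated, 2350 (90.5 CPM) in Yap KO unstimulated, 2326 (114 CPM) in WT stimulated and 1984 (103 CPM) in Yap KO stimulated cells, and its fitted change of 0.24 ± 0.12 was not called (edgeR quasi-likelihood adjusted p = 0.106). Smad3 had 1322 reads (57.7 CPM), 3245 (125 CPM), 562 (27.5 CPM) and 534 (27.7 CPM) in the same order. Smad3 was thus lowest in the 2 stimulated libraries, which were alike, and highest in unstimulated Yap KO cells. The log2 ratio was -1.07 (-1.21 to -0.92) in WT and -2.17 (-2.31 to -2.04) in Yap KO, intervals that did not overlap. Its fitted change was -1.63 ± 0.23 (edgeR quasi-likelihood adjusted p = 0.000229). Smad4, the shared partner of all receptor-activated SMADs, had 5759 reads (252 CPM) and 6056 (233 CPM) before stimulation in WT and Yap KO, and 1966 (96.3 CPM) and 1665 (86.3 CPM) after it. The log2 ratios of Smad4 were -1.38 (-1.46 to -1.31) in WT and -1.43 (-1.51 to -1.36) in Yap KO, with overlapping intervals, and its fitted change was -1.41 ± 0.12 (edgeR quasi-likelihood adjusted p = 7.73e-06).

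Smad7, the inhibitory SMAD, had 3210 reads (140 CPM) in WT unstimulated, 3324 (128 CPM) in Yap KO unstimulated, 173 (8.48 CPM) in WT stimulated and 255 (13.2 CPM) in Yap KO stimulated cells. Both stimulated libraries were far below both unstimulated ones, and within the stimulated pair Yap KO was the higher. The log2 ratio was -4.03 (-4.28 to -3.83) in WT and -3.27 (-3.47 to -3.09) in Yap KO. The fitted change was -3.65 ± 0.20 (edgeR quasi-likelihood adjusted p = 5.34e-07). The corepressors Ski and Skil were also divided, 1 called and 1 not, a difference between the genes that was not tested. Ski had 808 reads (35.3 CPM) and 713 (27.5 CPM) in the unstimulated WT and Yap KO libraries, against 186 (9.11 CPM) and 178 (9.23 CPM) in the stimulated ones, a fitted change of -1.76 ± 0.19 (edgeR quasi-likelihood adjusted p = 3.36e-05). Skil had 2446 reads (107 CPM), 2742 (106 CPM), 2082 (102 CPM) and 2543 (132 CPM) in that order (WT then Yap KO, unstimulated then stimulated), so that the states overlapped, and its fitted change of 0.13 ± 0.14 was not called (edgeR quasi-likelihood adjusted p = 0.433).

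**Figure D2:**
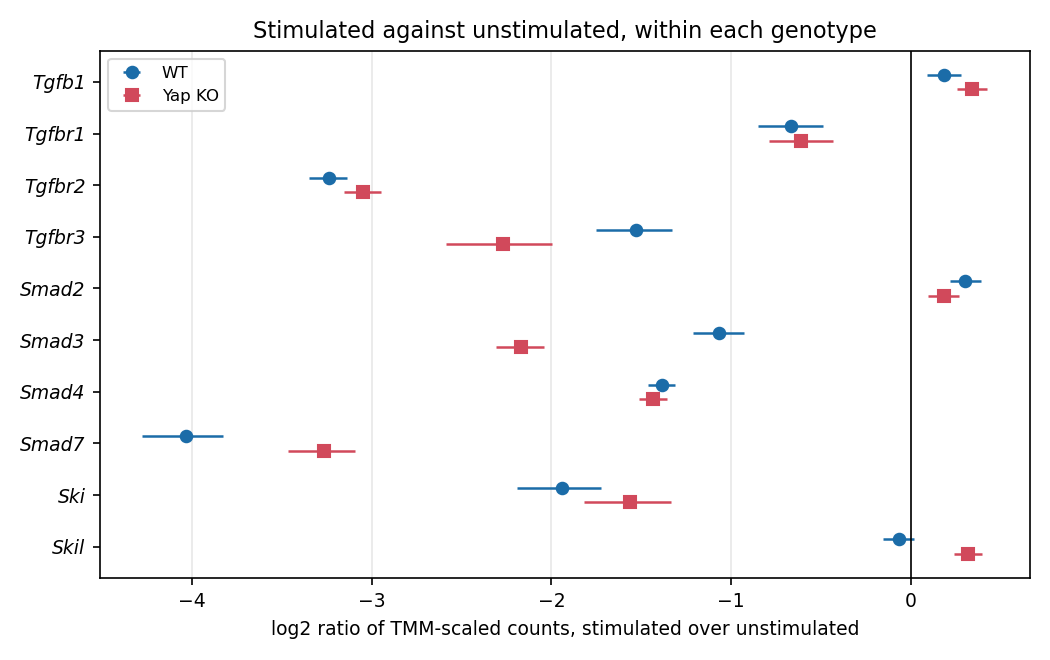
Log2 ratio of TMM-scaled counts, stimulated over unstimulated, for each member in WT (blue circles) and Yap KO (red squares), with exact 95% counting intervals and no change at 0. A set of 7 genes lies left of 0 in both genotypes, from Tgfbr1 at -0.67 and -0.61 to Smad7 at -4.03 and -3.27, and Smad3 and Tgfbr3 lie further left in Yap KO than in WT.

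By size alone, 6 of the 10 members were at least 2-fold lower in stimulated WT cells and 6 in stimulated Yap KO cells, namely Tgfbr2, Tgfbr3, Smad3, Smad4, Smad7 and Ski each time. Of all tested genes, 24.5% were at least 2-fold lower in WT and 25.9% in Yap KO. No member was at least 2-fold higher in either genotype, against 23.8% and 22.7% of tested genes.

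Set side by side per length, the order of the members differed between the states. These levels are reads per kilobase of merged exons, scaled to the same sum in every library (TPM). In WT unstimulated cells Smad4 stood at 198, Tgfbr2 at 130, Smad7 at 90.5 and Tgfb1 at 45.3 TPM. Skil at 32.2, Smad2 at 30.7 and Smad3 at 30.4 TPM had overlapping counting intervals, and Ski at 18.5, Tgfbr3 at 15.3 and Tgfbr1 at 13.5 TPM came last, with overlap between Tgfbr3 and Tgfbr1. In WT stimulated cells Smad4 still led at 71.6 TPM, then came Tgfb1 at 48.7, Smad2 at 35.8 and Skil at 29.1 TPM. Smad3 at 13.7 and Tgfbr2 at 13.0 TPM overlapped, Tgfbr1 stood at 8.03 TPM, and Smad7 at 5.18, Tgfbr3 at 4.98 and Ski at 4.52 TPM overlapped. In Yap KO unstimulated cells the order differed from that of WT mainly by Smad3, which at 66.4 TPM came above Tgfb1 at 51.0 TPM. The rest were Smad4 at 185, Tgfbr2 at 131, Smad7 at 83.4, then Skil at 32.1 and Smad2 at 30.4 TPM with overlapping intervals, and Ski at 14.5, Tgfbr1 at 13.8 and Tgfbr3 at 12.7 TPM, whose neighbours overlapped. In Yap KO stimulated cells Smad4 at 65.9 and Tgfb1 at 62.2 TPM had overlapping intervals, followed by Skil at 38.5 and Smad2 at 33.2 TPM. Tgfbr2 at 15.2 and Smad3 at 14.1 TPM overlapped, as did Tgfbr1 at 8.72 and Smad7 at 8.28 TPM, and Ski at 4.70 and Tgfbr3 at 2.51 TPM were last.

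Ratios of these per-length levels compare the RNA of genes within a library and say nothing about protein. The exon lengths are from GENCODE M21 and the counts from mm9, so levels and ratios also depend on lengths that may not match. A shift of a ratio between libraries does not depend on these lengths. Tgfbr2 over Tgfbr1 was 9.64 in WT and 9.43 in Yap KO cells before stimulation and 1.62 and 1.74 after it. Smad2 over Smad3 was 1.01 in WT but 0.457 in Yap KO cells before stimulation, and 2.61 and 2.34 after it. Skil over Ski went from 1.74 and 2.21 to 6.42 and 8.20. Each of these ratios shifted in the same direction in both genotypes. The same libraries enter all of the comparisons described here, and these ratios were not tested.

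The second comparison asked how the members differed between Yap KO and WT cells. Smad3 in unstimulated cells stood out in size, 2.16-fold higher in Yap KO, and Tgfbr3 in stimulated cells, 2.02-fold lower. In the additive fit 0 of the 10 members were called between the genotypes, where 0.838% of tested genes were called higher and 0.559% lower. At an unadjusted p under 0.05, edgeR's quasi-likelihood test counted 2 members, Tgfbr3 and Smad3, beside 11.6% of all tested genes, and DESeq2 with adjustment gave 0. As far as the titles say, this fit compares 2 cell sources. Its p-values thus understate the error of comparing animals, and it asks only about differences that were alike in both states.

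**Figure D3:**
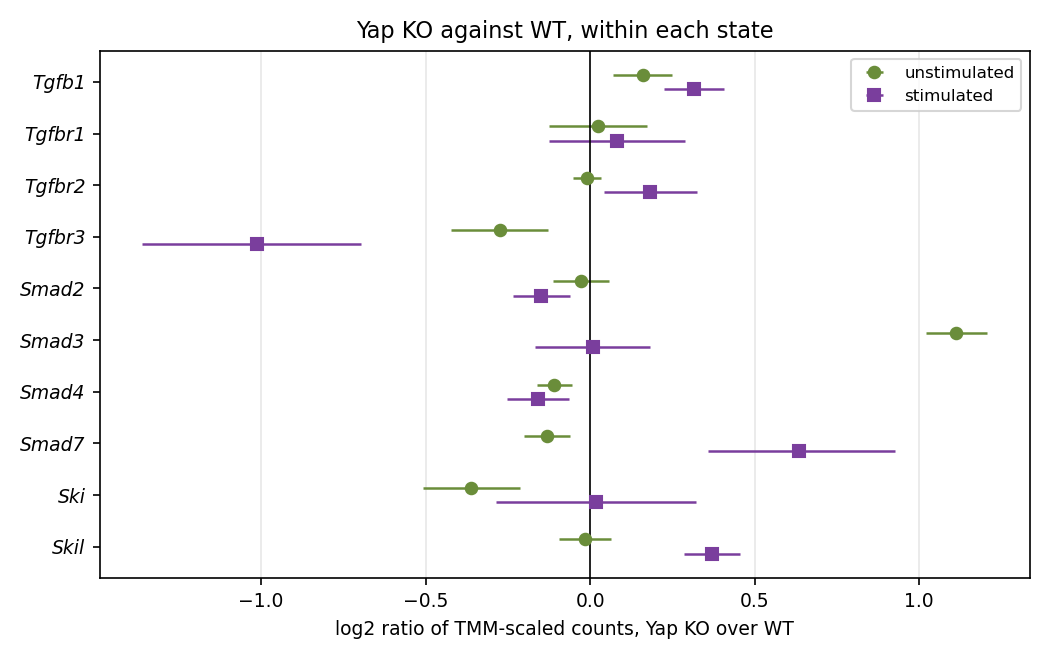
Log2 ratio of TMM-scaled counts, Yap KO over WT, for each member in unstimulated (green circles) and stimulated cells (purple squares), with exact 95% counting intervals and equal levels at 0. Unstimulated Smad3 at 1.11 and stimulated Tgfbr3 at -1.01 lie furthest from 0, followed by stimulated Smad7 at 0.64.

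Smad3, a DNA-binding SMAD, had a log2 ratio of Yap KO over WT of 1.11 (1.02 to 1.21) in unstimulated cells and 0.01 (-0.17 to 0.18) in stimulated cells. Before stimulation it alone of the 10 members passed 2-fold, and none did so downwards, where 4.81% of tested genes were that much higher in Yap KO and 3.75% that much lower. The fitted genotype difference over both states was 0.59 ± 0.23 and not called (edgeR quasi-likelihood adjusted p = 0.358). Some markers of other cell types were also higher in the unstimulated Yap KO library. Of 9 tested B cell markers 5 were at least 2-fold higher there, and the summed level of all 10 listed went from 41.8 CPM in WT to 73.4 CPM in Yap KO. The 8 NK cell markers summed to 261 and 416 CPM, with 2 of 5 tested at least 2-fold higher (Klrk1 and Eomes, which CD8 T cells also express), while Klrd1 had 161 and 162 CPM and Ncr1 had 2 and 15 reads. Eomes has exons opposite another gene. Klra8, which was not tested, had 2 and 62 reads. The 10 monocyte and macrophage markers summed to 846 and 1477 CPM, mostly Ly6c2, with Csf1r at 15.8 and 16.8 CPM and no reads of Fcgr1 or Marco in any library. Of 5 tested, 1 was at least 2-fold higher, Ccr2 with 133 and 763 reads, and Lyz2 had 136 and 238 reads. The 8 stromal and endothelial markers summed to 158 and 138 CPM, and they did not move together: Pecam1 had 156 and 118 CPM, Pdgfrb had 37 and 459 reads, Col1a2 had 0 and 44 reads, and Col3a1, Cdh5 and Pdpn had none. Of 6 tested dendritic cell markers 3 were at least 2-fold higher: Flt3 with 24 and 69 reads, Itgax with 144 and 607, and Xcr1 with 55 and 160. The platelet marker Itgb3 had 1329 and 3323 reads, and Pf4 had none. Neutrophil markers summed to 2.05 and 0.771 CPM and erythroid markers to 3.80 and 2.16 CPM, both lower in Yap KO. In stimulated cells the B cell markers were again higher in Yap KO, at 32.5 against 17.6 CPM, while Smad3 had 27.7 against 27.5 CPM. The part of these cells in the Smad3 difference was not tested.

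Tgfbr3 had log2 ratios of Yap KO over WT of -0.27 (-0.42 to -0.13) in unstimulated and -1.01 (-1.36 to -0.69) in stimulated cells. It was below WT in both states, and in stimulated cells it was the only member at least 2-fold lower, with 5.35% of tested genes reaching that size, and no member was 2-fold higher, against 4.02%. The fitted difference was -0.59 ± 0.21 and not called (edgeR quasi-likelihood adjusted p = 0.323). Tgfbr2 had -0.01 (-0.05 to 0.03) and 0.18 (0.04 to 0.33), and Tgfbr1 had 0.02 (-0.13 to 0.17) and 0.08 (-0.13 to 0.29). Both signalling receptors thus had unstimulated intervals that included equal levels, and the stimulated interval of Tgfbr2 did not.

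Smad7 had log2 ratios of -0.13 (-0.20 to -0.06) in unstimulated and 0.64 (0.36 to 0.93) in stimulated cells. Its 173 and 255 stimulated reads made it 1.55-fold higher in Yap KO. Ski was lower in unstimulated Yap KO cells, at -0.36 (-0.51 to -0.21), and near equal in stimulated cells, at 0.02 (-0.29 to 0.32). Skil showed -0.02 (-0.10 to 0.06) and 0.37 (0.29 to 0.45), and Tgfb1 0.16 (0.07 to 0.25) and 0.32 (0.23 to 0.41). Smad2 and Smad4 stayed within 0.16 of equal levels in both states. Smad2 had -0.03 (-0.11 to 0.06) in unstimulated and -0.15 (-0.24 to -0.06) in stimulated cells. Smad4 had -0.11 (-0.16 to -0.06) and -0.16 (-0.25 to -0.06), so its intervals lay below 0 in both states.

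The third comparison set the size of the stimulation response in Yap KO cells against that in WT cells. The fit has no replicate from which to test this difference, so only values with counting intervals are given. Smad3 fell by a further 1.11 on the log2 scale in Yap KO (difference of responses -1.11, normal 95% interval -1.30 to -0.91). This was the only member past 2-fold, a size that 13% of tested genes reached, 7.62% with the lower and 5.35% with the higher response in Yap KO. Tgfbr3 fell further in Yap KO by -0.74 (-1.09 to -0.39), and Smad7 fell less, with a difference of 0.77 (0.48 to 1.05). Smaller differences in the direction of Smad7 were found for Skil at 0.39 (0.27 to 0.50), Ski at 0.38 (0.05 to 0.71), Tgfbr2 at 0.19 (0.05 to 0.34) and Tgfb1 at 0.16 (0.03 to 0.28). The intervals of Tgfbr1, Smad2 and Smad4 included 0, that of Smad2 only just (-0.24 to 0.000108). The share of all tested genes with such an interval off 0 was not computed, so an interval off 0 does not set a member apart.

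**Figure D4:**
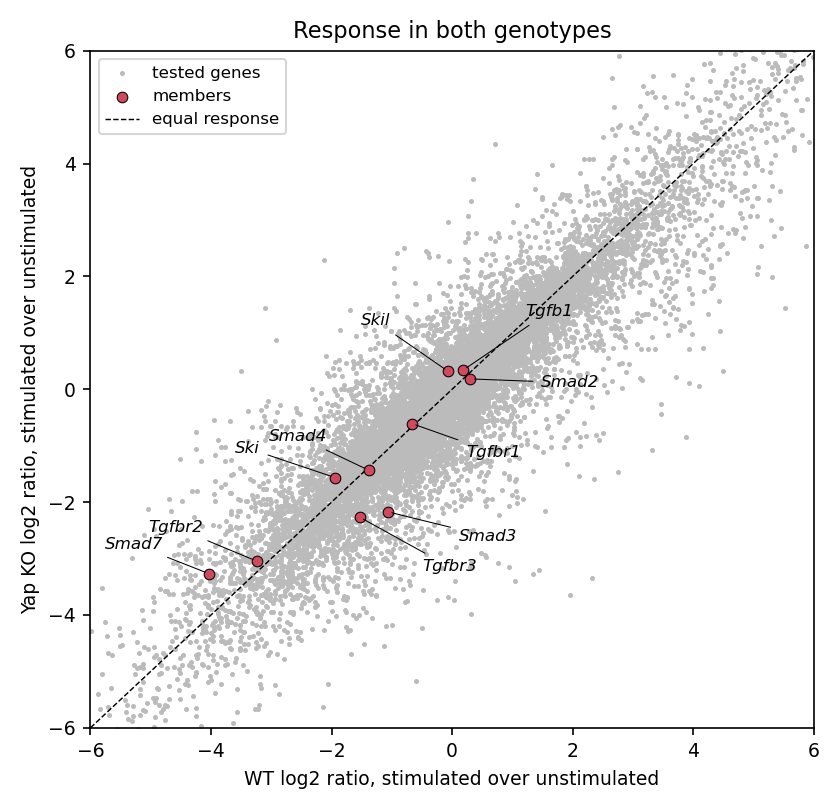
Log2 ratio of stimulated over unstimulated in WT (horizontal) and Yap KO (vertical) for all tested genes (grey) and the 10 members (red, labelled), with equal response as a dashed line; 206 genes lie outside the axes. Smad3, at -1.07 and -2.17, and Tgfbr3, at -1.53 and -2.27, sit below the line, and Smad7, at -4.03 and -3.27, above it.

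Other genes of the pathway were taken from 6 lists of ligands and activators, receptors, SMADs and partners, regulators of the signal, SMAD2/3 targets and genes that TGF-beta represses in T cells. Leaving out the members, they held 95 genes, of which 71 were tested, 25 rose and 33 fell with stimulation in edgeR's quasi-likelihood test. Of all tested genes 33.3% rose and 34.1% fell, and these shares are also the background for each list below. Their median fitted log2 change was -0.35, beside -0.05 over all tested genes.

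Of 24 genes for ligands and their activation only 8 were tested, and 3 rose and 2 fell with stimulation (median -0.04). Inhbb, Mstn, Bmp2, Bmp4 and Nog had no reads in any library. Lrrc32, which encodes GARP, the protein that tethers latent TGF-beta to the surface of activated and regulatory T cells, had 0 reads in both unstimulated libraries and 85 and 65 in stimulated WT and Yap KO cells. Against a floor of 3 counts per library it was at least 31.8-fold higher in stimulated WT cells, and for Yap KO cells the bound was 29.2-fold. Nrros, whose product tethers latent TGF-beta on myeloid cells, fell by 1.61 ± 0.12 on the log2 scale, from 142 and 186 CPM to 45.0 and 62.6 CPM. Itgav, the integrin subunit that binds latent TGF-beta and whose exons lie opposite another gene, rose by 1.14 ± 0.15. Gdf11, a relative of the activins, fell by 0.86 ± 0.28.

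The other receptors of the family were divided, with 4 higher and 4 lower of 8 tested among 11 listed (median 0.49). Acvr1 and Bmpr1a, type I receptors of bone morphogenetic proteins, rose. Acvr1 went from 3 and 5 reads in WT and Yap KO to 40 and 32, and Bmpr1a, opposite another gene, from 35 and 50 to 203 and 198. Acvr1b, an activin type I receptor, fell by 2.33 ± 0.30, and Acvrl1, a type I receptor known from endothelium and here opposite another gene, fell by 2.38 ± 0.30. Among other SMADs and their partners 6 of 8 tested genes fell and the others were not called (11 listed, median -1.03), led by Runx1, a transcription factor whose exons overlap a gene on the other strand, at -1.67 ± 0.19 and Ep300, an acetyltransferase that coactivates SMADs, at -1.62 ± 0.14.

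A list of 19 regulators of the signal, most of them negative, was tested in full, and 9 rose and 7 fell (median -0.13). It also holds Rnf111 (Arkadia), a ligase that degrades SMAD7, SKI and SKIL and so promotes the signal, with a fitted change of -0.77 ± 0.13, and the deubiquitinases Usp15 and Usp9x, also known to promote it, at 0.69 ± 0.12 and -0.16 ± 0.20 (Usp9x was not called, and Usp15 has exons opposite another gene). Dusp4, a phosphatase of MAP kinases, rose by 4.45 ± 0.21, from 37 and 47 reads to 730 and 764, and Fkbp1a, which binds the type I receptor and keeps it inactive, rose by 2.14 ± 0.12, from 131 and 136 CPM to 577 and 599 CPM. The ubiquitin ligases Smurf1 and Smurf2, which act with SMAD7 on the receptor, had fitted changes of -1.52 ± 0.15 and -1.60 ± 0.17.

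Of 19 SMAD2/3 target genes, which include the members Smad7, Ski and Skil, 17 were tested, 9 fell and 4 rose (median -1.12). Itgae fell by 5.03 ± 0.26 (edgeR quasi-likelihood adjusted p = 4.11e-07), from 2787 (WT) and 1258 reads (Yap KO) to 53 and 44, or from 122 and 48.5 CPM to 2.60 and 2.28 CPM. Tgfbi, a secreted matrix protein, went from 25 and 21 reads to 0 in both stimulated libraries, at least 7.43-fold and 5.20-fold lower. In the opposite direction, Cdkn1a, an inhibitor of cyclin-dependent kinases whose exons also lie opposite a gene, went from 10 and 11 reads to 2912 and 3996, and Ccr8, a chemokine receptor, from 0 and 11 reads to 81 and 70. Among 16 genes that TGF-beta is known to repress in T cells, all tested, 6 rose and 7 fell (median -0.37). Gzmb, the protease granzyme B, rose from 353 and 703 reads to 58285 and 46981, and Il2 from 2 and 0 reads to 228 and 1394. S1pr1, through which lymphocytes sense the lipid that draws them out of lymph nodes, fell by 5.74 ± 0.15, and Klrg1, a receptor of effector cells, went from 96 and 234 reads to 2 and 0.

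**Figure D5:**
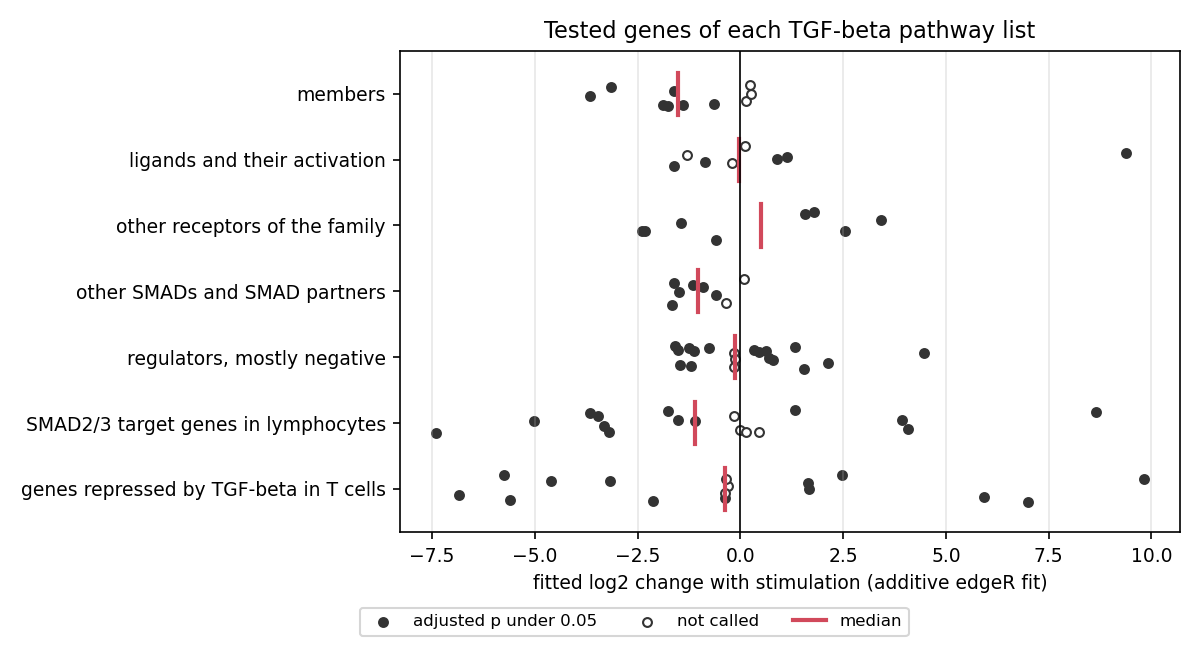
Fitted log2 change with stimulation for each tested gene of the members and the 6 pathway lists; filled points have an edgeR quasi-likelihood adjusted p under 0.05, open points do not, red bars are medians, and vertical scatter only separates points. The members, with a median of -1.52, and the SMAD2/3 targets, with -1.12 and 3 genes in common with the members, have the lowest medians, and points of genes with no reads in 1 state (Lrrc32 at 9.37 and Tgfbi at -7.41) depend on the fit and are no bound.

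Between genotypes, 3 of the 71 tested pathway genes were called in edgeR's quasi-likelihood test, all of them higher in Yap KO, beside 0.838% called higher and 0.559% called lower of all tested genes, again from 2 cell sources. Xcl1, a chemokine gene on the SMAD2/3 target list whose exons lie opposite another gene, had 73 reads in WT and 328 in Yap KO before stimulation and 938 and 3851 after it (edgeR quasi-likelihood adjusted p = 0.000329). Fasl, the death ligand of cytotoxic cells, had 144 and 345 reads before and 644 and 1525 after (edgeR quasi-likelihood adjusted p = 0.00846). Il2 was the third, with the reads given above, so that its difference comes from the stimulated cells (edgeR quasi-likelihood adjusted p = 0.0118). Fasl and Il2 came from the list of genes that TGF-beta represses. Itgae had a log2 ratio of -1.33 in unstimulated and -0.18 in stimulated cells, a difference that was not called (edgeR quasi-likelihood adjusted p = 0.0908).

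Among the 9187 other genes averaging at least 10 CPM, those whose centred log2 CPM (0.1 added) over the 4 libraries lay nearest to Smad7, the member with the largest fall, were Klrd1, Gm20559 and Rab11fip4, at Euclidean distances of 0.153, 0.169 and 0.190. Klrd1, a receptor subunit of NK and CD8 T cells, stood at 161 (WT) and 162 CPM (Yap KO) before stimulation and at 11.1 and 15.4 CPM after it. Those nearest to Tgfb1, the member with the highest fitted change, were Prune1, Mief1 and Atp6v1e1, at distances of 0.0125, 0.0305 and 0.0427. Gm20559, Prune1 and Atp6v1e1 have exons opposite another gene.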

How the data were processed

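RNA was sequenced from 1 library per group (WT and Yap KO, unstimulated and stimulated). The authors deposited raw read counts per Ensembl gene with 5 summary entries per table, and the submitters' processing notes name build mm9. Which aligner, annotation release and strand setting they used is not given in the sources used here, and 34.9% of tested genes have exons opposite another gene. Reads in genes were 35.6 to 39.7% of all entries, and those in no gene, 48.3 to 52.5%, stayed out of library sizes.

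Symbols came from GENCODE M21 (50376 of 50686 identifiers). Genes passing filterByExpr by state (minimum count 10) were tested with edgeR 4.0.16 (R 4.3.3), TMM scaling, genotype and state as additive terms (1 residual degree of freedom) and Benjamini-Hochberg adjustment at 0.05; DESeq2 1.42.0, other scalings, no filter, 1 term alone and opposite genes left out were alternatives. Single ratios used a prior count of 2. The stimulation term of the edgeR fit was run on simulated data in which a small part of the genes changed and the genotypes did not differ. That run checks the fitted changes, not the p-values of these data. Nothing says which animals gave the cells, so p-values measure only the spread between these libraries. Intervals cover counting error only, and 3 counts, taken as the floor, are 0.118 to 0.150 CPM.

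Members and lists were chosen with earlier results of these data known. Besides the members, the 2 largest called rises and falls per pathway list were named, then genes called between genotypes and at least 2-fold apart the same way in both states, the 3 genes most like the extreme members, and genes that account for a small count. Itgae's genotype ratio was added after its values were seen. Promoters are from RefSeq (GRCm38.p6), used for 5 of 10 members.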

Additional observations from a re-analysis of the deposited data

Results flagged for a closer look

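Smad7 was looked at again because its difference between genotypes had opposite signs in the 2 states. The log2 ratio of Yap KO over WT was -0.13 in unstimulated and 0.64 in stimulated cells, and both counting intervals lay off 0. With 1 library per group the difference between the states was not tested.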

How the results depend on the processing

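The members called with stimulation (7 lower, 0 higher) and between genotypes (0) were the same in number under every alternative run. Of the members' fitted values 119 kept their direction and side of the threshold, and 1 turned: the log2 genotype difference of Smad7 was -0.073 with genotype as the only term (edgeR adjusted p = 1.00), against 0.19. Counts over all genes moved more. With opposite genes left out (10018 tested, against 15394), 3401 genes fell and 3233 rose with stimulation, and 47 were lower and 72 higher in Yap KO. Fewer genes were tested here, which by itself lowers such counts, and the shares of genes called were not compared. Without a filter (25195 tested) 18 were lower and 23 higher in Yap KO, against 86 and 129. Scaling by total reads alone left 56 lower and 86 higher, and genotype as the only term in edgeR left 0 lower and 0 higher. The fit with genotype alone has no term for state, so the change with stimulation is left in its error. Why the counts without a filter and with total reads alone were smaller was not tested. Of the member ratios 147 stayed within their intervals and 3 moved, all in WT with total reads alone: Smad2 to 0.21, Smad4 to -1.48 and Skil to -0.16.

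No paired analysis was possible because every group has only replicate number 1, so that a block by number is constant. The genotype term of the additive fit separates the genotypes in the stimulation comparison. Whether both states of a genotype came from the same cell source is not stated. With state alone 4737 genes fell, 4776 rose and 7 members were lower. With 1 library per group none was left out. Depth limits Acvr1, Ccr8, Tgfbi and other genes with few reads.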
